A study of Mus musculus with 9 samples.

Results

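The actomyosin and focal adhesion genes examined here are 93 protein-coding genes of 21676 in the count table, picked by symbol for what they encode: actins and actin-related proteins, the Arp2/3 complex, filament crosslinkers, tropomyosins, calponins and transgelins, myosins and their light chains, and the proteins that tie filaments to integrins. The rule reads symbols and gene type and uses no measured value, though it was drawn up with earlier results of these data known. The 9 RNA-seq libraries came from cultures of B16, a melanoma line of the mouse. Cells with a control hairpin, spelled shCotrol in the labels, gave 3 libraries, and cells with the hairpins shAD4-1 or shAD4-2 gave 3 each. All 3 groups were hairpin-carrying derivatives of the same line in the same medium, and the design text describes a control and 2 knockdown derivatives with biological replicates. The title of the series names the adhesion receptor ADGRL4, tumour dormancy, Gαs-YAP1 signalling and angiogenesis. Whether a derivative was a clone or a pool, and the hairpin sequences, are not stated in what was read here. The p-values therefore measure the spread between replicate libraries of 1 derivative per hairpin.

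Actin filaments grow from monomers at their barbed ends, branch where the Arp2/3 complex nucleates a daughter filament on the side of a mother filament, and are bundled by crosslinkers such as alpha-actinin and filamin. Myosin II pulls on filaments of opposite polarity when its regulatory light chains are phosphorylated, and tropomyosins and calponins along the filament set which motors and severing proteins reach it. At focal adhesions talin, kindlin and the trio of integrin-linked kinase, PINCH and parvin couple integrins to the filaments, and LIM proteins such as zyxin and paxillin gather there under tension. In melanocytic cells unconventional myosins also carry melanosomes.

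The libraries held 31.3 to 36.9 M reads in genes, and the 93 genes took 1.38 ± 0.00845% of the control reads, 1.28 ± 0.0177% of those with shAD4-1 and 1.27 ± 0.0176% with shAD4-2 (SD, n = 3 per group). Each control library lay above all 6 hairpin libraries, with p = 0.1 for each hairpin in a two-sided exact permutation test, which cannot go lower with 3 libraries a side. Mitochondrially encoded genes moved the other way, at 2.45 ± 0.156%, 3.74 ± 0.104% and 3.72 ± 0.150% of reads, and outside them the share of the 93 genes was 1.41%, 1.33% and 1.32%. Refitting without the mitochondrial genes left the counts of called genes within 1 of the values given here. Within the control group replicate 1 was the odd one, with a chi-square per degree of freedom of 11.8 and 17.1 against each of them and 3.37 between the other pair. All 7 melanocytic markers listed were present at 1 FPKM or more (reads scaled for gene length and library depth), summing to 4623 to 5319 FPKM in the controls, 3988 to 4086 with shAD4-1 and 4364 to 4769 with shAD4-2. They did not move together with shAD4-2: Tyrp1 went from 1605 to 1943 FPKM in the controls to 1322 to 1354, and Pmel from 291 to 370 to 404 to 461. The 3 endothelial markers measured summed to at most 0.0868 FPKM in any library, and of 5 smooth muscle markers Myocd was listed at 0 in 8 of 9 libraries while the sum was 13.0 to 14.3, 20.2 to 21.4 and 17.2 to 20.8 FPKM in the 3 groups, mostly from Des. The rise of that sum came from Des. Smtn went from 3.68 to 4.64 FPKM in the controls to 3.05 to 3.34 with shAD4-2. Lmod1 went from 1.14 to 1.28 in the controls to 0.743 to 0.885 with shAD4-1. The 5 fibroblast markers were each under 1 FPKM on average, summing to 0.783 to 1.01 in the controls, 1.61 to 1.90 with shAD4-1 and 1.97 to 2.26 with shAD4-2. The part of these marker levels in the results was not tested. Adgrl4 is not analysed here, so the knockdown itself was not checked.

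In control cells the actin and cofilin transcripts led the set. Per length, Actb, cytoplasmic beta-actin, stood at 682 ± 17.7 FPKM and Cfl1, the filament-severing cofilin, at 638 ± 13.2 FPKM (SD, n = 3). They were followed by Myl6, the essential light chain, at 303 ± 14.9 FPKM, Actg1, gamma-actin, at 299 ± 3.84, and Actr3, the Arp3 subunit, at 246 ± 3.89. Myl6 and Actg1 differed by less than the spread between their libraries. Of the myosin II heavy chains Myh9 was the main one, at 77.9 ± 3.64 FPKM, and Myh10 had 0 reads in the 3 controls together, 2 with shAD4-1 and 0 with shAD4-2. Tagln2 had 1 read in all 9 libraries together, Cnn1 had 3 and Myl9 had 5, so the smooth muscle forms of calponin and of the regulatory light chain were close to undetected. In all, 19 of the 93 genes had between 1 and 61 reads over the 9 libraries and were not tested, and 13 of the 74 tested genes averaged under 5 CPM (reads scaled to a common library size) in control. The muscle actin Acta2 is not analysed here.

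Most of the genes tested differed from control with each hairpin, in both directions and mostly by little. With shAD4-1, 30 of the 74 were higher and 31 lower at an adjusted p under 0.05 (edgeR's quasi-likelihood test, Benjamini-Hochberg over 13807 genes), or 82.4%, where 65% of all genes tested were called (32.7% higher and 32.3% lower). With shAD4-2, 24 were higher and 29 lower, or 71.6%, against 69% of all genes (34.2% higher and 34.8% lower). At a fold of at least 1.5 as well, 11 were higher and 3 lower with shAD4-1, or 18.9% against 25.1% of all genes (12.6% higher and 12.5% lower), and 12 higher and 5 lower with shAD4-2, or 23% against 29.3% (13.7% higher and 15.6% lower). Many of these rises were of genes under 5 CPM. At 5 CPM or more without overlap, Cnn2, Zyx, Myo1c and Myo19 rose that far with shAD4-1, and Actr3 and Actr1a fell. With shAD4-2, Cnn2, Myo19, Zyx, Myo1c, Actr6 and Parva rose that far, and Actr3, Actr1a, Actr3b, Tes and Arpc4 fell. The median log2 fold change over the 74 genes was 0.01 for shAD4-1 and -0.03 for shAD4-2, where that over all genes tested was -0.01 for both. The genes set beside the members were not matched to them for level, and 61 of the 74 averaged 5 CPM or more in control. What level adds to the shares called was not tested. Both comparisons used the same control libraries: 21 of the genes were higher in both, 27 lower in both, 16 called with 1 hairpin only, 1 called in opposite directions and 9 called in neither. In RNA from whole cultures, fewer cells with a transcript and less of it per cell cannot be told apart.

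**Figure D1:**
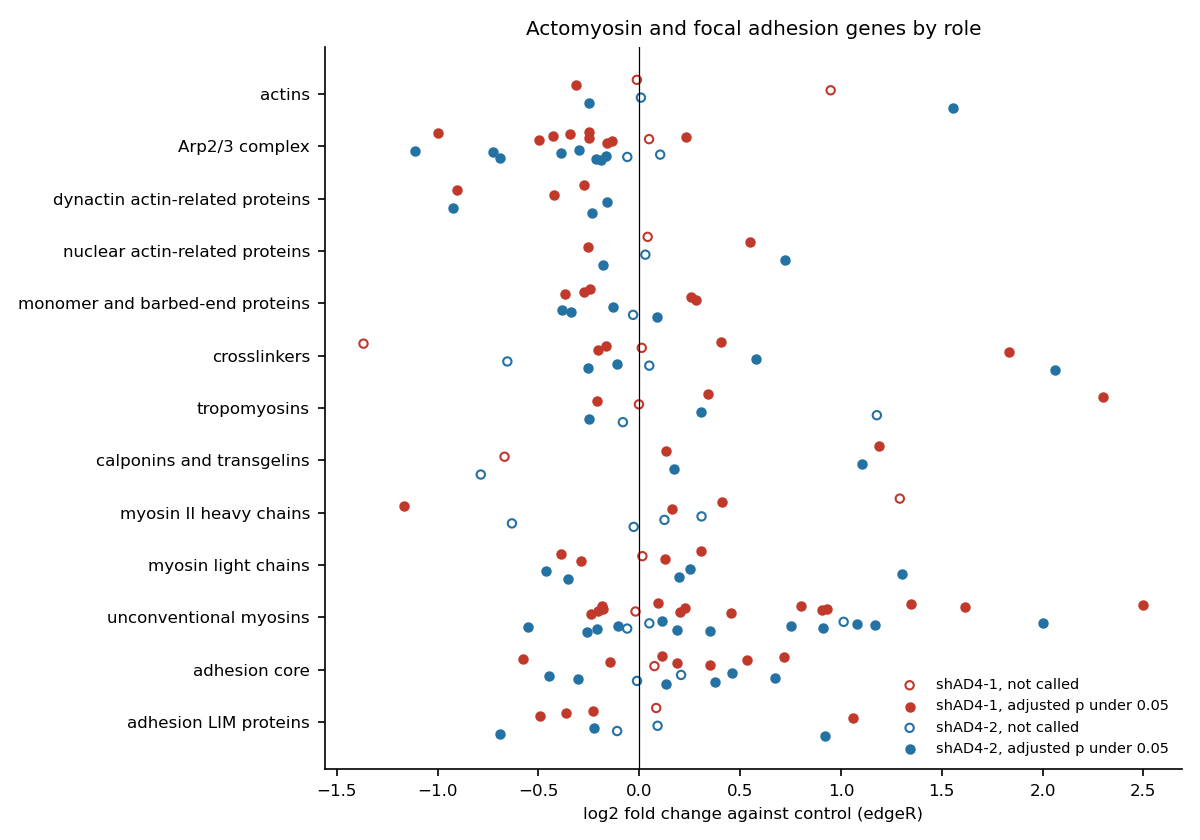
Log2 fold changes against control (x axis) of the 74 tested genes, 1 row per role, with shAD4-1 in red and shAD4-2 in blue and filled points for an adjusted p under 0.05. Arp2/3 and dynactin members sit mostly left of 0, unconventional myosins mostly right of it, and points beyond 1.2 are genes under 5 CPM.

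The Arp2/3 complex was mostly lower with both hairpins, and its Arp3 subunit fell the most. With shAD4-1, 8 of its 10 genes were lower and Arpc1b was higher, and with shAD4-2, 8 were lower and 0 higher (edgeR and DESeq2, with 1, Arpc1b, higher at an unadjusted p under 0.05). Of all genes tested, 32.3% were lower with shAD4-1 and 34.8% with shAD4-2. The median log2 fold change over the 10 was -0.25 and -0.26, where over all genes tested it was -0.01. Actr3, the Arp3 subunit that forms the start of the branch together with Arp2, had 642, 667 and 661 CPM in the controls, 324, 329 and 335 with shAD4-1 and 301, 301 and 309 with shAD4-2. Every hairpin library lay far under every control, and the shAD4-2 libraries lay slightly under those of shAD4-1. It was 2.00-fold lower with shAD4-1 (log2 fold change -0.997, SE 0.03, edgeR adjusted p = 2.33e-14) and 2.16-fold lower with shAD4-2 (log2 fold change -1.11, SE 0.03, edgeR adjusted p = 4.22e-15). Arpc4, a core scaffold subunit, had 145, 144 and 146 CPM in the controls, 106, 99.2 and 104 with shAD4-1 and 90.8, 88.6 and 90.3 with shAD4-2, again with no overlap, and fell to log2 fold changes of -0.50 and -0.69. Arp2 itself, from Actr2, was at 399 ± 10.6 CPM in the controls, 336 ± 10.8 with shAD4-1 and 324 ± 4.68 with shAD4-2, a log2 fold change of -0.25 and -0.30. Actr3b, the scarce second Arp3 gene, fell with both hairpins from 7.87 ± 0.634 CPM, by 0.34 and 0.72 on the log2 scale.

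The remaining subunits moved less. Arpc2, the other scaffold subunit, fell by 0.25 and 0.16 on the log2 scale and Arpc5 by 0.13 and 0.21, with Arpc5l at -0.16 and -0.19. Arpc3 was not called with either hairpin, at 149 ± 3.76 CPM in the controls, 154 ± 6.19 with shAD4-1 and 143 ± 10.4 with shAD4-2. The subunit 1 pair parted: Arpc1a fell (-0.43 and -0.39), while Arpc1b rose with shAD4-1 (0.23, edgeR adjusted p = 0.000467) and had 0.10 with shAD4-2 (adjusted p = 0.0693). Summed over the paralogs of each position, Arp3 went from 249 ± 4.04 FPKM in control to 120.4 ± 1.83 and 111 ± 1.73. ArpC1 was at 196 ± 13.2, 196 ± 3.22 and 185 ± 1.61 FPKM, with control libraries on both sides of the hairpin ones. ArpC4 was the position with the lowest sum in every group, at 65.6 ± 0.578, 44.7 ± 1.49 and 39.1 ± 0.499 FPKM. Levels per length of different genes depend on the gene models used, so the order of the positions within a group is uncertain. Between groups only changes within a position were compared.

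**Figure D2:**
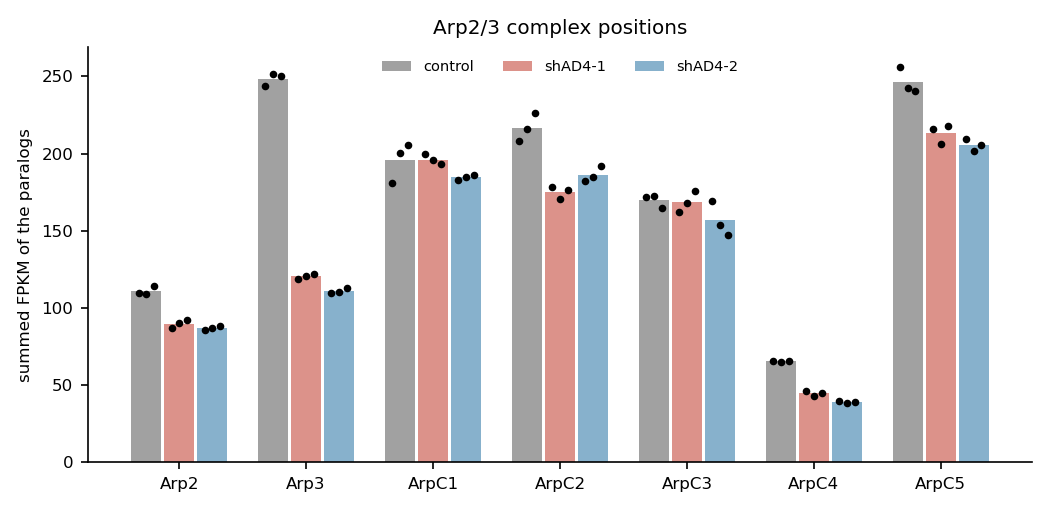
FPKM summed over the paralogs of each of the 7 positions of the Arp2/3 complex (y axis), with bars for group means and a point per library (3 per group). The Arp3 bars fall from 249 in control to 120 and 111, control points overlap those of both hairpins for ArpC1 and ArpC3, and ArpC4 is lowest throughout.

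Of the 3 actin genes tested, Actb was not called and Actg1 was lower with both hairpins. Actb had 1298, 1244 and 1284 CPM in the controls, 1315, 1288 and 1191 with shAD4-1 and 1308, 1343 and 1197 with shAD4-2, overlapping groups, and was called in neither comparison (log2 fold change -0.01, SE 0.05, and 0.01, SE 0.05). Actg1 fell a little with both, from 568 ± 6.35 to 457 ± 13.8 and 479 ± 8.58 CPM (log2 fold change -0.31 and -0.25), without overlap. The enteric actin Actg2 was called higher with shAD4-2 alone and stood under 0.6 CPM in that group. Reads shared by near-identical actin genes and their pseudogenes may be divided between them or left out, which makes these levels uncertain. All 3 actin-related proteins of dynactin, the adaptor that links dynein to cargo, fell, where 32.3% and 34.8% of all genes tested were lower. Actr1a, the Arp1 that builds the dynactin filament, had 164, 184 and 184 CPM in the controls, 95.5, 96.4 and 93.1 with shAD4-1 and 98.8, 96.3 and 85.7 with shAD4-2. It was 1.87-fold and 1.90-fold lower (log2 fold change -0.90, SE 0.05, edgeR adjusted p = 5.32e-11 for shAD4-1, and 3.52e-11 for shAD4-2), with a gap between the lowest control and the highest hairpin library. Its paralog Actr1b fell by 0.42 and 0.23 on the log2 scale and the pointed-end subunit Actr10 by 0.28 and 0.16. The nuclear actin-related proteins did not move together: Actr6, of the complex that deposits H2A.Z, rose (0.55 and 0.72), Actr8, of the INO80 remodeller, fell (-0.26 and -0.18), and Actr5, its INO80 partner, was not called.

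Of 5 proteins that supply, sever or extend filaments, 2 were higher and 3 lower with shAD4-1, and 1 higher and 3 lower with shAD4-2. Among all genes tested, 65% were called with shAD4-1 and 69% with shAD4-2. Pfn1, the main profilin that delivers actin monomers, had 351, 344 and 331 CPM in the controls, 264, 271 and 260.4 with shAD4-1 and 278, 276 and 258 with shAD4-2. All hairpin libraries lay under all control libraries, and Pfn1 fell by 0.37 and 0.34 on the log2 scale. Pfn2 rose with shAD4-1 (0.26, edgeR adjusted p = 0.00102) and was not called with shAD4-2 (-0.03, adjusted p = 0.67). Cfl1 fell from 736 ± 18.5 to 623 ± 18.4 and 672 ± 30.8 CPM, and Cfl2, the muscle-type cofilin, by 0.27 and 0.38 on the log2 scale. Vasp, which extends filaments at their barbed ends, rose with shAD4-1 (0.28) and slightly with shAD4-2 (0.09, adjusted p = 0.038).

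Of 6 tested crosslinkers 2 were higher and 2 lower with either hairpin, and of 4 tropomyosins 2 were higher and 1 lower with shAD4-1 and 1 higher and 1 lower with shAD4-2. The share of all genes called was 65% with shAD4-1 and 69% with shAD4-2. Actn1, an alpha-actinin of stress fibres and adhesions, rose from 67.4 ± 1.85 to 89.4 ± 2.32 and 101 ± 3.28 CPM (log2 fold change 0.41 and 0.58), and Actn4, the more abundant alpha-actinin, fell by 0.16 and 0.11. Flna, the main filamin, was not called, at 545 ± 5.31 CPM in the controls, 550.0 ± 14.9 with shAD4-1 and 564 ± 15.6 with shAD4-2. Tpm1, a tropomyosin of stress fibres, had 379.8, 407 and 426 CPM in the controls, 518, 511 and 507 with shAD4-1 and 497, 514 and 491 with shAD4-2, so every hairpin library exceeded every control. Tpm1 rose by 0.34 and 0.31 on the log2 scale, Tpm3 fell by 0.21 and 0.25, and Tpm4 was not called (-0.00 and -0.08). Isoforms within a tropomyosin gene were not separated by these counts.

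Cnn2, calponin 2, had the highest rise of the members at 5 CPM or more in both comparisons. Its libraries held 36.5, 40.1 and 45.3 CPM in the controls, 93.6, 93.6 and 90.7 with shAD4-1 and 85.5, 92.4 and 84.7 with shAD4-2. Every hairpin library stood well above every control. The rise was 2.28-fold with shAD4-1 (log2 fold change 1.19, SE 0.06, edgeR adjusted p = 8.94e-12) and 2.15-fold with shAD4-2 (log2 fold change 1.11, SE 0.06, edgeR adjusted p = 2.13e-11). Cnn3, the more abundant calponin, was at 294 ± 26.0 CPM in the controls, 323 ± 1.98 with shAD4-1 and 331 ± 1.56 with shAD4-2, rises of 0.13 and 0.17 on the log2 scale, the first with overlapping libraries. In FPKM, control replicate 1, at 166.8, lay above every hairpin library (157.6 to 163.9). Tagln, the transgelin SM22 alpha and a marker of contractile smooth muscle, was barely detected, at 0.0552 to 0.567 CPM in every library, and was not called. The 250 bases before the start of Cnn2 are shown because they hold a CArG box, the site read by serum response factor (CC, then 6 bases of A or T, then GG), here in capitals. They come from RefSeq on GRCm38.p6, chr10:79988350-79988599, + strand, written 5′ to 3′:
Cnn2: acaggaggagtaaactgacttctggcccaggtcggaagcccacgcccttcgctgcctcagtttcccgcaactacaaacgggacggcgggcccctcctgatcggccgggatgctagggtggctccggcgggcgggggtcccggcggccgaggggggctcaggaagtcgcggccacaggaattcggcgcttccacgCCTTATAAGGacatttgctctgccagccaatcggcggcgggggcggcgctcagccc
The same stretch is shown for Zyx, the adhesion gene with the highest rise, and for Actr3, the member of 5 CPM or more with the largest fall, which hold neither this motif nor GGAATG in these windows (GRCm38.p6, chr6:42349578-42349827, + strand, and chr1:125435728-125435977, - strand):
Zyx: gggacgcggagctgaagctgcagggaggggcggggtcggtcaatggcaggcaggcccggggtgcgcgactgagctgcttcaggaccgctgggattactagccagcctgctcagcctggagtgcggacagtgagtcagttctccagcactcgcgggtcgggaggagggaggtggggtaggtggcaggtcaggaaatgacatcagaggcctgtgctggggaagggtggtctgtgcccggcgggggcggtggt
Actr3: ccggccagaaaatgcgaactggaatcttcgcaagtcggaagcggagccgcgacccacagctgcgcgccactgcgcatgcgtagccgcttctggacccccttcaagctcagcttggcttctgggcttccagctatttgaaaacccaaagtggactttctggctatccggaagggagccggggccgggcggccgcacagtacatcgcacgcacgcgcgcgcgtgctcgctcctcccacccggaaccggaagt

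A CArG box lay between 250 bases before and 50 after the start in 11 of the 76 genes with a promoter in the RefSeq table (14.5%), and in 1.81% of the 27025 genes in that table. Of the 60 tested genes with a promoter 8 had one. Their windows of up to 30 bases are printed to show the letters, with the box in capitals, and the motif was searched on both strands:
Actg1: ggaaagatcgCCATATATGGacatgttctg
Arpc4: CCTAATTTGGtgcccaacct
Cnn2: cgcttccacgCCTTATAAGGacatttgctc
Fermt2: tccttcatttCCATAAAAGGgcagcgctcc
Lima1: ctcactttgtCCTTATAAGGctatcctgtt
Myl6: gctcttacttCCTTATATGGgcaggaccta
Myo1e: gctgaattctCCATTTATGGacagattgcc
Vcl: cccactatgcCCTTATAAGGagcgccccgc
They lie, on GRCm38.p6, at chr11:120348566-120348595 (- strand), chr6:113377863-113377882 (+ strand), chr10:79988534-79988563 (+ strand), chr14:45530250-45530279 (- strand), chr15:99820177-99820206 (- strand), chr10:128493040-128493069 (- strand), chr9:70207308-70207337 (+ strand) and chr14:20929161-20929190 (+ strand), in that order. The 8 genes did not share a direction. With shAD4-1 the log2 fold changes were 1.19 for Cnn2, 0.13 for Myl6, 0.12 for Fermt2 and 0.08 for Vcl, of which Vcl was not called, against -0.50 for Arpc4, -0.31 for Actg1, -0.23 for Lima1 and -0.18 for Myo1e. With shAD4-2 they were 1.11, 0.20, 0.46 and 0.13, all called, against -0.69, -0.25, -0.22 and -0.55, all called. GGAATG, a motif of the TEAD factors that YAP1 binds, was searched on both strands and occurred in the windows of 21 of the 76 genes (27.6%) and of 16.6% of all genes in the table. It occurred in 13 of the 60 tested genes (21.7%) and in 15.7% of the genes with both a promoter and counts. A match is a run of letters in a window and not evidence of binding.

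Of 4 tested myosin II heavy chains 2 were higher and 1 lower with shAD4-1 and 0 were called with shAD4-2 (edgeR and DESeq2, also 0 at an unadjusted p under 0.05). Of 5 light chains 2 were higher and 2 lower with shAD4-1 and 3 higher and 2 lower with shAD4-2. Among all genes tested, 65% were called with shAD4-1 and 69% with shAD4-2. Myh9, the main nonmuscle heavy chain, was at 564 ± 28.4 CPM in the controls, 631 ± 7.26 with shAD4-1 and 553 ± 15.3 with shAD4-2. It rose slightly with shAD4-1 (0.16, edgeR adjusted p = 0.00139) and was not called with shAD4-2 (-0.03). Myh14, the scarcer nonmuscle heavy chain, had 25.4, 27.7 and 29.2 CPM in the controls, 36.8, 36.9 and 35.7 with shAD4-1 and 30.6, 27.7 and 31.5 with shAD4-2. It rose with shAD4-1 (0.41) and overlapped control with shAD4-2 (0.13, adjusted p = 0.103). Myl12a and Myl12b encode near-identical regulatory light chains and moved in opposite directions. Myl12a had 280.2, 302 and 305 CPM in the controls, 375, 375 and 348 with shAD4-1 and 348, 353 and 353 with shAD4-2, and Myl12b had 70.3, 71.8 and 75.5 CPM in the controls, 56.3, 54.2 and 55.7 with shAD4-1 and 50.7, 55.8 and 51.2 with shAD4-2. Hairpin libraries lay above all controls for the first and under all controls for the second, with log2 fold changes of 0.31 and 0.25 for Myl12a and -0.39 and -0.46 for Myl12b. The split between the 2 genes is uncertain, since the treatment of reads that fit both is not stated in what was read here. Myl6 rose by 0.13 and 0.20, and its scarce relative Myl6b fell by 0.29 and 0.35 on the log2 scale.

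Of 15 tested unconventional myosins, 10 were higher and 4 lower with shAD4-1, and 8 higher and 4 lower with shAD4-2. Of all genes tested, 32.7% were higher and 32.3% lower with shAD4-1, and 34.2% and 34.8% with shAD4-2. Among the rises of these myosins, 6 and 5 were 1.5-fold or more, and of those only Myo1c and Myo19 were at 5 CPM or more. The others, such as Myo15b, were under 5 CPM in every group. Myo1c, a membrane-linked class I motor, had 147, 148 and 144 CPM in the controls, 285, 278 and 273 with shAD4-1 and 242, 249 and 249 with shAD4-2. Both hairpin groups stood clear of control and of each other. The rise was 1.90-fold (log2 fold change 0.93, SE 0.04, edgeR adjusted p = 1.04e-13) and 1.69-fold (log2 fold change 0.75, SE 0.04, edgeR adjusted p = 1.74e-12). Myo19, a motor on mitochondria, had 11.7, 10.9 and 11.4 CPM in the controls, 20.3, 19.0 and 19.9 with shAD4-1 and 25.0, 23.7 and 23 with shAD4-2, with shAD4-2 highest and no overlap, and rose by 0.80 and 1.08 on the log2 scale. Myo9a, which carries a GTPase-activating domain, rose (0.46 and 0.35), and its relative Myo9b fell (-0.24 and -0.26). The melanosome motor Myo5a fell with shAD4-1 (-0.20, edgeR adjusted p = 0.00076) and was not called with shAD4-2 (-0.06), and Myo7a, also found on pigment organelles, rose by 0.20 and 0.19.

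Another class I gene moved differently from Myo1c. Myo1e, a motor of endocytic sites and adhesions, fell from 71.4 ± 3.15 to 63.1 ± 1.80 and 48.7 ± 2.62 CPM (-0.18 and -0.55 on the log2 scale). Among those left untested for low reads, Myo1g had 0 reads in the 3 controls together, 22 with shAD4-1 and 39 with shAD4-2. Set against 3 reads over the control group and taken as exact, the hairpin reads were 6.86-fold and 13.4-fold higher, scaled for depth. Myo1g was picked for mention after its counts were seen. Myo10, the filopodial motor, rose by 0.09 and 0.11, Myo6, which walks to the pointed end, fell with shAD4-2 (-0.21) and was not called with shAD4-1 (-0.02), and Myo18a fell with shAD4-1 (-0.19) and was not called with shAD4-2 (0.05).

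**Figure D3:**
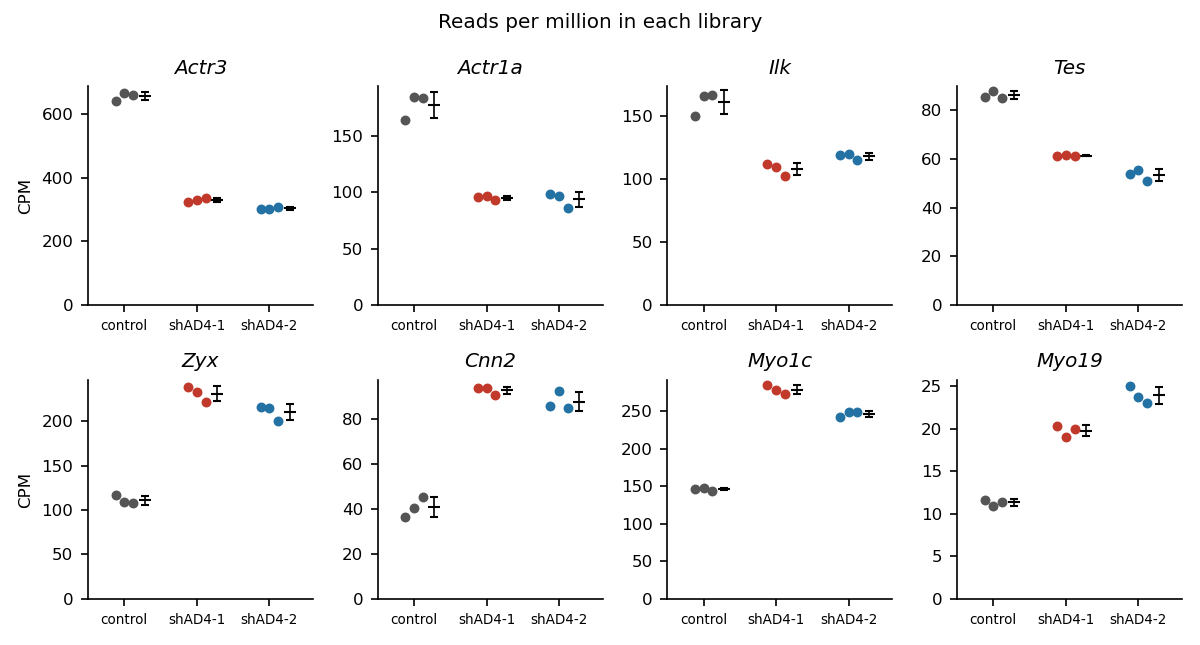
Reads scaled to a common library size, in CPM (y axis, from 0, scaled per gene) of 8 named genes in each library, with control in grey, shAD4-1 in red and shAD4-2 in blue and the group mean ± SD (n = 3) beside the points. For Actr3, Actr1a, Ilk and Tes every hairpin library lies under every control, and for Zyx, Cnn2, Myo1c and Myo19 every hairpin library lies above.

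Of 8 core adhesion genes, 5 were higher and 2 lower with shAD4-1 and 4 higher and 2 lower with shAD4-2, where 65% and 69% of all genes tested were called. Within the integrin-linked kinase trio members moved in both directions. Ilk, its hub, had 151, 166 and 167 CPM in the controls, 112, 109.9 and 103 with shAD4-1 and 119.6, 120.0 and 115 with shAD4-2. All hairpin libraries were under all control libraries, a fall of 0.58 and 0.45 on the log2 scale (edgeR adjusted p = 4.06e-09 and 1e-07). Of its PINCH partners, which belong to the list of regulators, Lims1 fell by 0.45 and 0.50 and Lims2 from 2.18 ± 0.543 to 0.333 ± 0.124 and 0.493 ± 0.295 CPM, and Rsu1, which binds PINCH, was not called (0.04 and -0.08). Parva, the widely expressed parvin, had 93.1, 85.7 and 85.6 CPM in the controls, 129, 131 and 124 with shAD4-1 and 136, 149 and 136 with shAD4-2, without overlap, and rose by 0.54 and 0.67. Parvb fell by 0.14 and 0.30, the first with overlapping libraries. Talin 1, the integrin activator Tln1, rose with shAD4-1 (0.19) and was not called with shAD4-2 (-0.01), and Tln2 rose with both (0.35 and 0.38). Fermt2, kindlin 2, was at 143 ± 7.67 CPM in the controls, 154 ± 5.57 with shAD4-1 and 196 ± 2.67 with shAD4-2, a rise of 0.46 with shAD4-2 and of 0.12 with shAD4-1, where libraries overlapped. Vcl, vinculin, was called with shAD4-2 (0.13, adjusted p = 0.0108) and not with shAD4-1 (0.08).

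Of 5 tested LIM proteins of adhesions, Zyx was higher with both hairpins, and 3 were lower with shAD4-1 and 2 with shAD4-2. The share of all genes called was 65% with shAD4-1 and 69% with shAD4-2. Zyx, zyxin, which marks mature adhesions and strained stress fibres, had 117, 109 and 108 CPM in the controls, 239, 232 and 222 with shAD4-1 and 216, 215 and 199.8 with shAD4-2. The lowest hairpin library was well above the highest control. It was 2.08-fold higher with shAD4-1 (log2 fold change 1.06, SE 0.04, edgeR adjusted p = 4.44e-13) and 1.89-fold higher with shAD4-2 (log2 fold change 0.92, SE 0.04, edgeR adjusted p = 2.62e-12). Tes, testin, a LIM protein that binds zyxin, went the other way, with 85.7, 88.2 and 85.0 CPM in the controls, 61.4, 61.6 and 61.2 with shAD4-1 and 53.8, 55.6 and 51.0 with shAD4-2. Its groups did not overlap, and it fell by 0.49 and 0.69 on the log2 scale. Lima1, which crosslinks filaments, fell by 0.23 and 0.22. Pxn, the adhesion scaffold paxillin, fell with shAD4-1 (-0.36, edgeR adjusted p = 5.05e-06) and was at -0.11 with shAD4-2 (adjusted p = 0.0616). Fhl3 was not called in either comparison (0.08 and 0.09), and Fhl2 had 54 reads in all and was not tested.

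The balance between paralogs was read as the share of 1 gene in the summed FPKM of its family. Of the regulatory light chains, Myl12b held 33.8, 32.6 and 33.4% in the controls, 23.4, 22.7 and 24.5% with shAD4-1 and 22.8, 24.3 and 22.7% with shAD4-2. The hairpin libraries lay together under every control library. Parva took 41.7, 36.3 and 35.7% in the controls, 49.0, 49.9 and 49.2% with shAD4-1 and 53.8, 54.4 and 55.0% with shAD4-2 of the parvin sum, in 3 separate bands, and Actn1 took 17.6 ± 0.148%, 24.1 ± 0.385% and 25.6 ± 0.69% of the alpha-actinin sum (SD, n = 3). Cnn2 went from 13.5 ± 2.17% to 24.4 ± 0.219% and 22.9 ± 0.93% of the calponins, and Tln2 from 12.3 ± 0.497% to 13.5 ± 0.266% and 15.5 ± 0.105% of the talins. Tpm1 went from 33.4 ± 1.27% to 40.2 ± 0.192% and 40.8 ± 0.352% of the tropomyosins as Tpm3 went from 28.8 ± 0.9% to 23.7 ± 0.378% and 23.9 ± 0.181%. Arpc1a, whose position was added after values were seen, went from 30.0 ± 1.30% to 21.3 ± 0.2% and 23.4 ± 0.72% of subunit 1. Over 15 families and 3 comparisons, 29 of 45 two-sided exact permutation tests of the leading member's share gave p = 0.1, the smallest possible, and the smallest adjusted p was 0.155. With 3 libraries a side no share could have passed 0.05, so these tests cannot decide whether a share changed. The families include subunits 1 and 5 of Arp2/3, which were not planned.

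**Figure D4:**
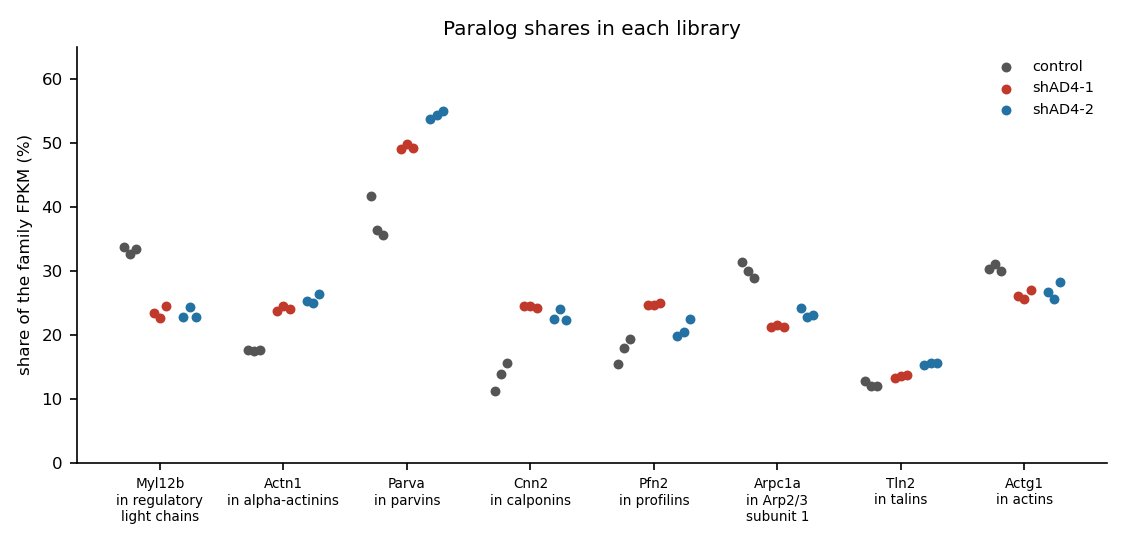
Share of the summed FPKM of a paralog family held by 1 member (y axis, %), a point per library and 3 libraries a group. Myl12b, Arpc1a and Actg1 shares are lower in both hairpin groups than in control, Actn1, Parva, Cnn2 and Tln2 shares higher, and Pfn2 is highest in shAD4-1.

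The hairpins were also compared directly. Of the 74 genes 11 were higher and 15 lower in shAD4-2 than in shAD4-1 cells (35.1%, against 27.4% of all genes tested, 13.4% higher and 14% lower), and 1 of them, Myl4 at under 1 CPM, was past 1.5-fold, where 3.9% of all genes were (0.963% higher and 2.93% lower). Without shAD4-1 replicate 2 the count was 17, 6 of them higher, and without shAD4-2 replicate 1 it was 19, also 6 higher. Fermt2 was higher in shAD4-2 (log2 fold change 0.34, SE 0.04, edgeR adjusted p = 1.48e-05), with no overlap of libraries. Myo1e was lower (-0.37), as were Pfn2 (-0.29), Myh14 (-0.28), Tes (-0.20) and Actr3b (-0.38, adjusted p = 0.0377). Myo19 (0.28), Pxn (0.25), Myo18a (0.24), Actr1b (0.19) and Actn1 (0.17) were higher. The Actr3b call was lost on leaving out any 1 of 5 hairpin libraries, all but shAD4-1 replicate 3. Actr3, at -0.12, and Myo1c, at -0.17, differed between the hairpins by far less than either did from control.

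**Figure D5:**
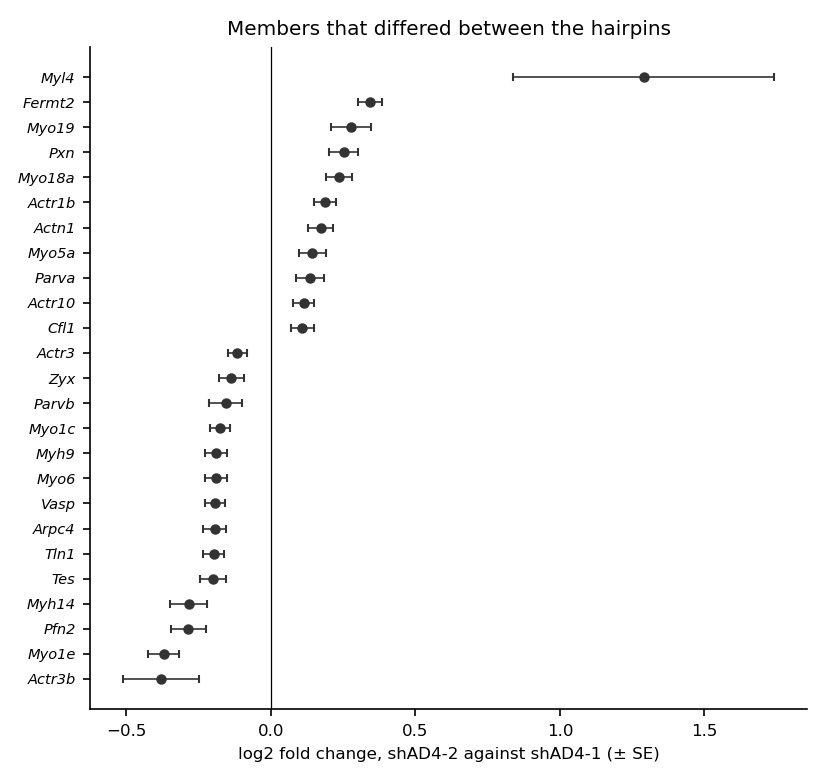
Log2 fold change of shAD4-2 against shAD4-1 with its SE (x axis) for 25 of the 26 genes called in that comparison, ordered by size. Apart from Myl4 at 1.29, a gene of under 1 CPM, the values lie between -0.38 and 0.34.

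Regulators of the same machinery were read from a list of 70 genes, of which 69 were tested. With each hairpin 20 were higher and 30 lower, or 72.5%, where 65% of all genes were called with shAD4-1 and 69% with shAD4-2. At 1.5-fold or more as well, 17.4% and 18.8% of them were called, against 25.1% and 29.3% of all genes. Small GTPases that drive contractility fell: Rhoa had 474, 507 and 501 CPM in the controls, 243, 234 and 237 with shAD4-1 and 244, 242 and 237 with shAD4-2, Rhob fell by 1.30 and 1.40 on the log2 scale, and Rhoc by 0.21 and 0.49. For Rhoa no hairpin library reached the level of any control, a fall of 1.05 and 1.03. Rac1 and Cdc42, which act on the Arp2/3 complex through the WAVE and WASP proteins, fell by 0.28 and 0.29 and by 0.32 and 0.29. Of the WAVE complex, Wasf2 (-0.62 and -0.64), Brk1 (-0.59 and -0.64), Nckap1 (-0.46 and -0.49) and Cyfip1 (-0.39 and -0.25) fell, and Abi1 was not called (-0.00 and -0.04). The barbed-end factors split, with the formin Diaph3 (1.03 and 1.47) and Enah (0.91 and 1.20) higher and Evl (-0.86 and -0.75), of the same Ena/VASP family as Enah, lower.

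Palladin, from Palld, which scaffolds alpha-actinin and zyxin on stress fibres, had 13.2, 15 and 11.7 CPM in the controls, 27.3, 27.8 and 29.0 with shAD4-1 and 27.2, 27.3 and 29.6 with shAD4-2, more than any control in all 6 hairpin libraries, and rose by 1.08 and 1.08. Ppp1r12a, the targeting subunit of the phosphatase that acts on myosin light chains, rose (0.54 and 0.66), and the alpha-actinin partner Pdlim1 fell (-0.72 and -0.73). The filament capper Capg rose with shAD4-1 (0.67) and was not called with shAD4-2 (0.10, edgeR adjusted p = 0.0869), a difference of -0.57 between the hairpins. Diaph3 was higher in shAD4-2 than in shAD4-1 by 0.44, the filament-binding nexilin Nexn by 0.39, the alpha-actinin partner Synpo by 0.32 and the myosin light chain kinase Mylk by 0.32, and the membrane-linked filament binder Svil was lower by 0.41 and Rhoc by 0.28. Tmsb4x, which sequesters monomers, was low, at 6.82 ± 0.497 CPM in the controls, 6.52 ± 0.487 with shAD4-1 and 2.92 ± 0.335 with shAD4-2, and fell with shAD4-2 (-1.22). Srf and its coactivator Mrtfa rose with both hairpins, by 0.21 and 0.29 and by 0.43 and 0.29.

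Some smaller calls were lost or gained in other settings. With shAD4-1, Cnn3 and Parvb were lost without control replicate 2 or 3, Fermt2 also under upper-quartile scaling, and Myh9 on unfiltered FPKM. With shAD4-2, Cfl1 was lost without control replicate 2 or shAD4-2 replicate 3, Actn4 without control replicate 2 or 3 or shAD4-2 replicate 3, and Vcl under upper-quartile scaling. Pxn and Tpm4 became called as lower with shAD4-2 under that scaling, at -0.14 and -0.11. Members under 5 CPM gave the largest rises: Flnc, the muscle filamin, was at 0.266 ± 0.0391 CPM in the controls, 0.958 ± 0.303 with shAD4-1 and 1.13 ± 0.266 with shAD4-2 (log2 fold change 1.83 and 2.06), Tpm2 at 2.30 and 1.18, the second of them not called, and Myo15b at 2.50 and 2.00. These rest on few reads per library, at most 1.35 CPM for Flnc. The filter kept a gene if enough libraries of any group reached a minimum, so one scarce in control could enter through hairpin libraries. Myo15b had 2, 2 and 4 reads in the controls and 18, 22 and 8 with shAD4-1. For such genes the filter favoured a rise, and they are among the rises counted above. Tagln was not called, but without shAD4-1 replicate 2 it was, at -2.37 with shAD4-1.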

How the data were processed

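RNA from 9 cultures was sequenced, 3 per group, with libraries made by the VAHTS Universal V6 kit, per the labels' protocols. The submitters' processing notes name fastp, HISAT2, HTSeq and the build GRCm39; versions, annotation and strand setting are not stated there. The deposited files give read counts per gene and FPKM values, the authors' own, in 1 table each over the 9 libraries. Their columns are headed Con, KD1 and KD2, and KD1 and KD2 were matched to shAD4-1 and shAD4-2 by number. The counts were fitted here with edgeR 4.0.16 (R 4.3.3) on all 9 libraries, with TMM scaling, filterByExpr (13807 genes, 99.968% of reads) and the quasi-likelihood test. A gene was called at a Benjamini-Hochberg adjusted p under 0.05 over all genes tested. The biological coefficient of variation was 5.15%. SE was taken from the fold change and F. FPKM as deposited by the authors served for levels between genes and paralog shares, with exact permutation tests in SciPy 1.17.1. The method was tested on simulated data. Over the 3 comparisons it recovered 65.7 to 68.7% of 1.25-fold changes and 86.6 to 94.0% of 1.5-fold changes, set in genes that were not scarce. A gene not called here may therefore still differ by a small amount.

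The members and lists were chosen with earlier results of these data known. The genes named are, per comparison with control, the 10 largest rises and falls among called members with no overlap of libraries and a mean of 5 CPM or more on the higher side, the 6 largest each way between hairpins, 16 fixed genes, the leading paralog of each family, the 4 largest regulators each way, and members of complexes described in full. Others named, such as the low-level genes, were chosen after their values were seen. Promoters came from RefSeq, matched by symbol. Alternatives were other scalings, DESeq2 1.42.0, limma 3.58.1 on log2 FPKM, filters, a fold minimum, a block, and leaving out each library. Adgrl4 and Acta2 are not analysed here, and some members that entered the counts are not reported here by name.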

Additional observations from a re-analysis of the deposited data

Results flagged for a closer look

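Ezr, the ERM protein ezrin of the regulator list, was called in opposite directions against control with the 2 hairpins, and the difference between hairpins was itself called. Ezr was at 65.5 ± 4.03 CPM in the controls, 59.8 ± 1.14 with shAD4-1 and 70.8 ± 0.595 with shAD4-2 (SD, n = 3). It was lower with shAD4-1 (-0.13, edgeR adjusted p = 0.0261) and higher with shAD4-2 (0.11, adjusted p = 0.0472), a difference of 0.245 between hairpins (adjusted p = 0.00122). Both contrasts against control shared the same 3 control libraries.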

How the results depend on the processing

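Leaving out each library in turn left 55 to 63 members called for shAD4-1 and 48 to 56 for shAD4-2. Between hairpins it left 17 to 32 (6 to 14 higher, 0 to 1 past 1.5-fold), and 17 to 32 regulators. The members' median ran from 0.014 to 0.061 for shAD4-1 and from -0.025 to 0.016 for shAD4-2. Testing against a 1.5-fold minimum with glmTreat called 10 members for shAD4-1 (8 higher, 2 lower), 9 for shAD4-2 (5 higher, 4 lower) and 0 between hairpins (0 higher, 0 lower, 1 at an unadjusted p under 0.05), where the test without a minimum called 26, and 7, 8 and 1 regulators. With limma on log2 FPKM at a pseudocount of 1 or 0.1, 19, 14 and 7 members were higher, the last also unfiltered. Past 1.5-fold it called 6 (pseudocount 1, with or without filter) and 7 (0.1) for shAD4-1, 10 for shAD4-2 (pseudocount 1, with or without filter) and 0 between hairpins. A minimum of 1 CPM gave 9 past 1.5-fold for shAD4-1. Between hairpins the count was 0 with that minimum, no filter or the replicate block. The members' median was 0.056, 0.096 and 0.00052 in the 3 comparisons with no filter, -0.011 and -0.065 against control at 1 CPM, and, by limma, -0.072 and -0.077 for shAD4-1 and -0.14 for shAD4-2. Over all genes the median was 0 in the 3 comparisons with no filter, and -0.0091 and -0.010 against control at 1 CPM. By limma at a pseudocount of 1 and 0.1 it was -0.051 and -0.058 for shAD4-1, and -0.044 and -0.050 for shAD4-2. The cause of these changes was not tested.

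Some uncalled values near 0 changed sign. For shAD4-1, Actb was 0.0023 and Tpm4 0.013 unfiltered, Tpm4 0.00056 with 2 groups, and Flna -0.0088 with upper-quartile scaling, -0.0061 with protein-coding genes and -0.046 by limma. For shAD4-2, Actb was -0.024 with upper-quartile scaling, -0.016 with protein-coding genes and -0.050 by limma, and Flna -0.0068 or -0.0069 by limma. Between hairpins Fhl3 was -0.0032 with upper-quartile scaling. Without single libraries, Actb ran from -0.038 to 0.032 for shAD4-1, -0.023 to 0.068 for shAD4-2 and -0.021 to 0.072 between hairpins. For shAD4-1, Fhl3 ran from -0.0034 to 0.17, Flna from -0.0033 to 0.035 and Tpm4 from -0.017 to 0.018. For shAD4-2, Myh9 ran from -0.057 to 0.010, Myo5a from -0.091 to 0.015 and Tln1 from -0.021 to 0.016, and between hairpins Fhl3 from -0.080 to 0.13 and Tagln from -0.58 to 1.59. Share differences ran, in points, from -1.30 to 0.054 for Actb and -0.26 to 0.73 for Myl12a between hairpins, -0.12 to 1.43 for Arpc5 and -0.0029 to 0.32 for Cfl1 with shAD4-1, and -1.01 to 0.54 for Arpc5 and -0.016 to 0.45 for Fermt2 with shAD4-2.

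The replicate block left 60, 52 and 23 members called and put Tagln at 0.022 between hairpins. Libraries with the same number did not deviate together (r from -0.124 to 0.0022, against -0.069 to 0.11 for other pairs). Of 41 and 38 named genes called against control, 37 and 34 kept the call under every alternative but glmTreat, and 12 and 15 with glmTreat included. Between hairpins 20 of 26 named genes called kept the call under every alternative but glmTreat, and 1 with it included. The depth of single libraries limits members under 5 CPM.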
